A study of Mus musculus with 8 samples.

Results

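The Zfp-named genes are mouse genes whose symbol is Zfp followed only by digits, the largest group of symbols for zinc finger proteins. They were taken from the deposited table of genes with ribosome-protected fragment (RPF) and input values by matching its Ensembl identifiers, without the version suffix, to GENCODE mouse symbols and keeping protein-coding genes. Of 9307 listed genes, 189 were Zfp-named. The annotation has 365 protein-coding genes of that form, and the others are not listed in the table and are not analysed here. All 189 had a complete annotated coding transcript.

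The cells were mouse embryonic fibroblasts, connective tissue cells grown from embryos, from a line immortalised with SV40 T antigen. In the OE cells pBabe retroviral vectors brought in wild-type METTL1 and WDR4, and the EV cells received the empty vector instead. Both were kept in puromycin and G418 and were expanded without either drug. The labels call them stable clones, and neither the number of clones nor a separate culture for each replicate is given. There were 2 libraries in each of 4 groups, OE RPF, EV RPF, OE input and EV input, made after cycloheximide treatment and ribosomal RNA depletion with a commercial ribosome profiling kit. The p-values below thus cover the variation from library to library, possibly technical alone, and a difference between clones cannot be told apart from an effect of the vectors. METTL1 is a methyltransferase that modifies guanosine in a subset of transfer RNAs, among them an arginine tRNA that reads AGA codons, and WDR4 is its partner.

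A C2H2 zinc finger is a short protein module in which a pair of cysteines and a pair of histidines hold a zinc ion, and rows of such fingers read DNA sequence. Many Zfp proteins also carry a KRAB domain, which recruits the co-repressor TRIM28 (KAP1) and through it histone methylation and heterochromatin proteins, and in the embryo such proteins silence transposable elements and protect imprinted genes. Others of the same name bind RNA, act on ribosomes, or work as ubiquitin or SUMO ligases. RPF are mRNA fragments kept from nuclease digestion by the ribosome on them, and RPF set against input gives the number of footprints relative to the mRNA.

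The fingers below are examples from single genes. The first 6 are each gene's first C2H2 finger of standard length with the linker TGEKP (amino acid letters) and a cysteine of a next finger after it. They are shown with that linker, and any earlier finger with another linker was passed over. The stretch from Zfp36 is a CCCH finger. All are from genes whose values are described further on. Capitals mark the codons of the zinc-binding cysteines and histidines, and letters are from the coding strand, read 5′ to 3′ from the GENCODE coding sequence on build mm10. Each stretch lies within 1 coding exon.
Zfp956, chr6:47963687-47963770, plus strand: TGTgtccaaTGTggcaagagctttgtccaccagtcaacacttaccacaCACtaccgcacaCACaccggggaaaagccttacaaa
Zfp652, chr11:95763556-95763639, plus strand: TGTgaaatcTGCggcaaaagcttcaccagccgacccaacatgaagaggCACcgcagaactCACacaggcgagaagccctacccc
Zfp180, chr7:24105115-24105198, plus strand: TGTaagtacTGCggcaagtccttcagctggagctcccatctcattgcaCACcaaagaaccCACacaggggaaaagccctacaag
Zfp873, chr10:82059893-82059976, plus strand: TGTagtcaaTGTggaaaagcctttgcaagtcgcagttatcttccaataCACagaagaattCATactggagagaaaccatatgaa
Zfp53, chr17:21508472-21508555, plus strand: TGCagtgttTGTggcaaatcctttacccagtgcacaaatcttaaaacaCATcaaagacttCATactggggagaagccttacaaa
Zfp933, chr4:147826658-147826741, minus strand: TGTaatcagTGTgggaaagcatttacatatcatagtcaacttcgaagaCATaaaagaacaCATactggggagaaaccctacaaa
Zfp36, chr7:28378158-28378217, minus strand: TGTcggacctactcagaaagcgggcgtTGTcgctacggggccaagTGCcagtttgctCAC

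The C2H2 fingers of Zfp956, Zfp652, Zfp180, Zfp873, Zfp53 and Zfp933 are 84 bases long, and 28 of the 84 positions held the same base in all 6. Identity between pairs ran from 52.4% (Zfp652 and Zfp933) to 75% (Zfp873 and Zfp933). The pattern used to pick these fingers fixes their length, the zinc-binding residues and the linker residues. Part of the identity was thus set by the choice. The finger of Zfp36 is of another type, with 3 cysteines and 1 histidine over 60 bases, and belongs to an RNA-binding protein. Most of the members' sequence was unique: of the 28-base subsequences of a member's transcript, a median of 99.0% occurred in no other annotated gene, the lowest share was 68.0%, and 24 members were under 90%. How the authors treated reads with several matches is not given in the sources used here, so values of genes under 90% are uncertain. The shares cover the whole transcript with its untranslated regions. Uniqueness of the coding sequence alone, where RPF lie, was not computed, and a high share does not show it.

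The Zfp-named mRNAs were long and low in abundance. Their median input was 10.3 normalised reads, against 23.4 over all listed genes, and per kb of transcript the medians were 3.10 and 7.73. Per kb 162 of the 189 lay below the median of all genes. Their median transcript was 3800 bases long, against 3101 over all genes, the coding sequence 1827 against 1458 bases, and the 3′ untranslated region 1397 against 1009 bases. Coding sequence made up much the same part of the transcript, with medians of 53.1% for Zfp-named genes and 54.5% for all genes. The median number of C2H2 fingers was 10, the largest number was 36 (Zfp142), and 6 members (Zfp36, Zfp330, Zfp365, Zfp503, Zfp703 and Zfp839) had none that matched the pattern.

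The listed share differed with the kind of Zfp gene, which was not tested. A KRAB-like sequence pattern was found in 184 of the annotated Zfp-named genes with a complete coding transcript, and 75 of these (40.8%) were listed. Of the 180 without the pattern 114 (63.3%) were listed. By chromosome the listed part was 41 of 89 on chromosome 7, 26 of 41 on chromosome 17, 15 of 24 on chromosome 8, 8 of 25 on chromosome 2, 7 of 29 on chromosome 4 and 5 of 31 on chromosome 13. The table lists only genes with at least 1 read in every one of the 8 libraries, so that listing depends on depth as well as on expression.

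The depth behind these values was low. The 8 libraries held 294367 to 864147 reads in listed genes. The median Zfp-named gene had 12 and 7 reads in OE RPF and 10 and 9 in EV RPF, and it had 7 and 7 in OE input and 9 and 8 in EV input. Under 10 reads were found for 68 to 119 of the 189 members, depending on the library. A single read was worth 1.27 to 1.61 normalised reads in the input libraries and 0.549 to 0.898 in the RPF libraries. Mettl1 input values were 33.7 and 16 in OE cells and 16.7 and 14 in EV cells, and those of Wdr4 were 24.1 and 42.6 in OE cells and 16.7 and 26.7 in EV cells. Whether the vectors carry mouse or other coding sequence is not in the labels, so these values do not check the overexpression. Of 13 fibroblast markers 12 were listed (Thy1 was the one that was not), with summed input of 6072 to 6325 in OE and 5247 to 5497 in EV libraries. Of the epithelial and leukocyte markers 2 of 8 each were listed, with sums of at most 24.2 in any library, and no endothelial or muscle marker was. Of 8 neural markers 4 were listed (Ncam1, Nes, Tubb3 and Map2), with summed RPF of 250 and 254 in OE and 183 and 165 in EV libraries and summed input of 148 and 162 in OE and 125 and 130 in EV libraries. Col1a1 was higher in OE input and OE RPF and Ncam1 in OE RPF (limma, adjusted p = 4.20e-04, 0.0038 and 0.0316), and the part of a shift in cell makeup in the results below was not tested. In such bulk libraries fewer cells of a type and less RNA per cell cannot be told apart.

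Set against input, the RPF of Zfp-named genes were low. Zfp-named genes took 0.482% and 0.456% of the reads in the OE RPF libraries and 0.460% and 0.464% in the EV RPF libraries. In the input libraries they took 0.770% and 0.717% (OE) and 0.789% and 0.779% (EV). The widest 95% Wilson interval of the RPF shares was 0.438% to 0.475% and that of the input shares 0.739% to 0.802%, so every RPF library lay below every input library. The intervals cover counting error only.

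Gene by gene the median of RPF over input was 0.614 for Zfp-named genes and 1.01 for all genes, with values scaled so that the typical gene is near 1. In OE cells the medians were 0.591 and 1.01, and in EV cells 0.625 and 1.01. Of the 189 members 150 had a ratio below 1 in OE cells and 153 in EV cells, and 133 in both. Over all 9307 genes these counts were 4590, 4622 and 3727. By coding length the RPF level was 3.40 normalised reads per kb at the median, against 14.2 over all genes.

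The difference between RPF and input was tested with limma on log2(value + 1), with 4 RPF libraries against 4 input libraries and Benjamini-Hochberg adjustment over all 9307 genes at 0.05. RPF was lower than input for 74 of the 189 members (39.2%) and higher for 6 (3.17%), where the share of all genes called was 25.4% lower and 25.6% higher. The median log2 difference was -0.63 for Zfp-named genes and 0.03 for all genes. Below 0 were 153 of the 189 members and 4521 of the 9307 genes. All 4 RPF libraries lay under all 4 input libraries in 65 members and above them in 5, against 21.4% and 20.2% of all genes. With RPF per coding length over input per transcript length, the median log2 ratio was 0.32 for the members and 0.91 for all genes. On recovered reads edgeR had 76 lower and 6 higher members, with 51.5% of all genes called, and DESeq2 had 49 and 3, with 36.3%, against 51.0% of all genes with limma.

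**Figure D1:**
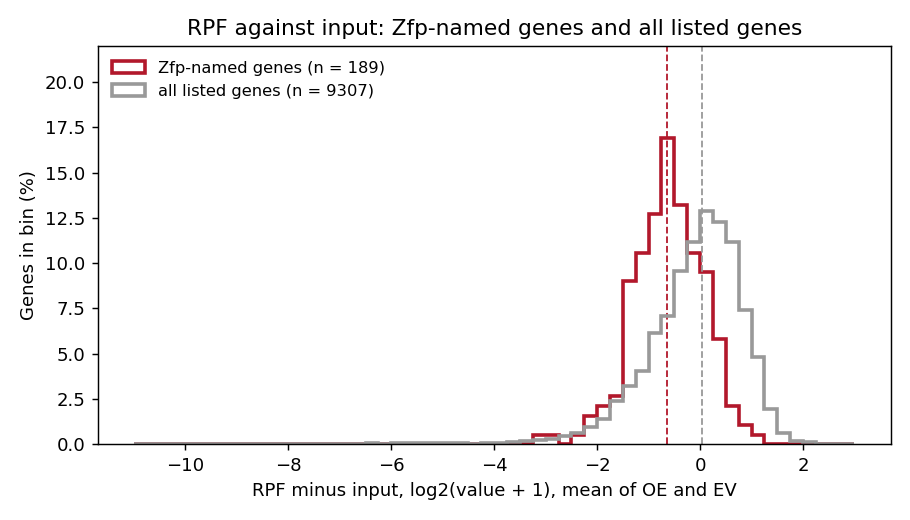
Share of genes (%) in bins of the log2 difference between RPF and input, averaged over OE and EV cells, for the 189 Zfp-named genes (red) and all 9307 listed genes (grey), with dashed lines at the medians. The Zfp-named genes are centred at -0.63 and all genes at 0.03.

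Members with more reads were called lower more often. Among members with a mean value under 5 normalised reads 6 of 45 were lower (13.3%, against 11.9% of all genes at that level). Between 5 and 10 it was 16 of 59 (27.1% against 18.1%), and between 10 and 20 it was 23 of 43 (53.5% against 24.5%). Between 20 and 50 it was 23 of 35 (65.7% against 30.9%), and at 50 or more 6 of 7 (85.7% against 28.2%). In the interquartile range of the members' coding lengths 34 of 95 members were lower and 1 was higher, against 493 lower and 431 higher of 2018 genes. Among members with at least 95% unique sequence over the whole transcript and under 20% exon overlap with another gene, 60 of 146 were lower and 5 higher.

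**Figure D2:**
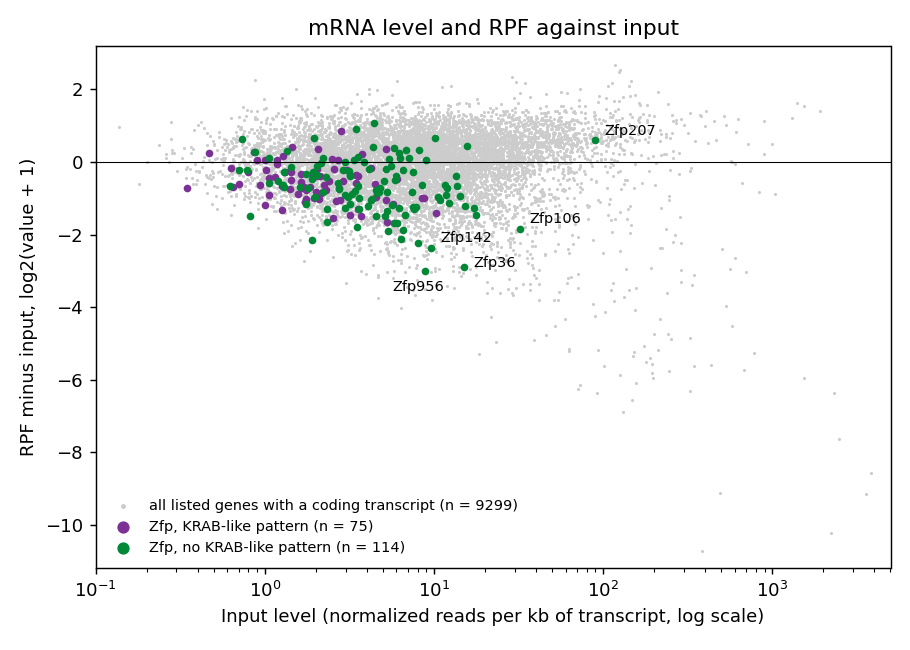
Input level in normalised reads per kb of transcript (horizontal, log scale) against the log2 difference between RPF and input (vertical) for listed genes with a coding transcript (grey) and for Zfp-named genes with (purple, n = 75) and without (green, n = 114) the KRAB-like pattern. Most Zfp-named genes lie at low input and below 0, and Zfp207 stands at 89.6 reads per kb and above 0.

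Zfp-named proteins that act on RNA or ribosomes went both ways. Of the 9 on that list 8 were listed in the table, 4 higher in RPF than input and 4 lower. That is 50% each, against 25.6% higher and 25.4% lower of all genes. Zfp622, known for maturation of the large ribosomal subunit, had RPF values of 40.1 and 52.1 in OE and 38.9 and 49.7 in EV libraries. Its input values were 30.5 and 32.0 in OE and 21.8 and 29.3 in EV libraries. All 4 RPF libraries were above all 4 input libraries, and the log2 difference was 0.65 (SE 0.18, limma, adjusted p = 0.00283). Zfp593, whose yeast relative works on the same subunit, had the highest difference of any member, 1.09 (SE 0.31, limma, adjusted p = 0.00405), but its reads are uncertain because exons of another gene cover 77.9% of its exon bases.

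Zfp830, a nuclear protein linked to splicing, had RPF values of 11.5 and 9.88 in OE and 10.5 and 12 in EV libraries. Its input values were 6.42 and 5.33 in OE and 6.42 and 3.82 in EV libraries, 3 to 5 reads each. RPF was above input in every library (log2 difference 0.90, limma, adjusted p = 0.0194). The call of Zfp830 did not hold without EV input 2, EV RPF 2 or OE RPF 1 (0.75, 0.86 and 0.85, adjusted p at most 0.0746). Zfp326, which couples transcription with splicing, had a smaller difference of 0.43 (limma, adjusted p = 0.0288). That call was lost in 5 of the 8 fits without 1 library (EV input 2, OE input 1, EV RPF 1, EV RPF 2 and OE RPF 1), with differences of 0.31, 0.31, 0.39, 0.47 and 0.34.

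The 4 lower members of this list were Zfp36, Zfp106, Zfp598 and Zfp638. Zfp36 is tristetraprolin, which binds AU-rich elements through CCCH fingers such as the one shown above and speeds mRNA decay. Its RPF values were 3.29 and 3.59 in OE and 5.27 and 6.78 in EV libraries, against input values of 46.6 and 35.9 in OE and 27.0 and 58.6 in EV libraries. RPF was far below input in both genotypes, with a log2 difference of -2.89 (SE 0.28, limma, adjusted p = 8.81e-10). Among the 189 members it was the lowest after Zfp956. Zfp106, an RNA-binding protein needed for motor neuron and muscle maintenance in mice, had RPF values of 89.4 and 85.3 in OE and 79.8 and 72.3 in EV libraries. Its input values were 286 and 280 in OE and 305 and 306 in EV libraries, so all 4 RPF libraries were below all 4 input libraries (log2 difference -1.84, SE 0.09, limma, adjusted p = 6.90e-16). Exons of other genes overlap 26.1% of its exon bases. Zfp598, the ubiquitin ligase that senses collided ribosomes, differed by -1.21 (limma, adjusted p = 1.33e-06), and Zfp638, an RNA-binding protein of silencing complexes, by -0.67 (adjusted p = 2.28e-04).

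The 3 ubiquitin, SUMO and spindle members were also split. Zfp207 (BuGZ), which loads the checkpoint protein Bub3 at kinetochores, was the most abundant Zfp-named mRNA per length, at 89.6 normalised reads per kb. Its RPF values were 254 and 183 in OE and 213 and 203 in EV libraries. Its input values were 133 and 145 in OE and 157 and 125 in EV libraries. All RPF libraries were above all input libraries, with a log2 difference of 0.60 (SE 0.10, limma, adjusted p = 2.17e-05). Zfp91, a ubiquitin ligase, differed by -1.27 (limma, adjusted p = 1.04e-08) and Zfp451, a SUMO ligase, by -0.72 (adjusted p = 0.0036). The call of Zfp451 did not hold without EV RPF 1 (-0.48, adjusted p = 0.0579).

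DNA-binding regulators without a KRAB domain were mostly low in RPF. Of 29 listed as such 26 were in the table, 19 lower (73.1%) and none higher, with a median log2 difference of -0.93. Over all genes the shares were 25.4% lower and 25.6% higher. The median input of these 26 was 28.1 normalised reads, and 65.7% of all members with a mean value between 20 and 50 were lower. The part of read level in the count was not tested. Among the 19, DESeq2 did not call Zfp24, Zfp217, Zfp219, Zfp513 and Zfp516 (DESeq2 adjusted p from 0.0679 to 0.135). Of the 19, Zfp24, Zfp217, Zfp219, Zfp513 and Zfp516 did not pass in 1 or more of the fits without 1 library, where their differences ran from -1.07 (Zfp219, without EV input 2) to -0.24 (Zfp516, without OE input 1). After Zfp207 and Zfp106 (32.4), the most abundant members in input reads per kb of transcript were Zfp644 (17.6), Zfp91 (17.2), Zfp326 (15.7), Zfp598 (15.2), Zfp36 (15.1) and the BTB-domain protein Zfp131 (14.2). Zfp131 had a log2 difference of -0.95 (limma, adjusted p = 8.24e-05). Zfp644, a partner of the G9a histone methyltransferase, had RPF values of 34.6 and 43.1 in OE and 33.6 and 34.6 in EV libraries. Its input values were 93.1 and 108 in OE and 98.8 and 108 in EV libraries, more than in any of its RPF libraries (log2 difference -1.46, SE 0.14, limma, adjusted p = 4.39e-10). Zfp148, which binds GC-rich promoters, differed by -1.30 (adjusted p = 1.86e-07), Zfp609, a partner of the Integrator complex, by -1.45 (adjusted p = 3.77e-07) and Zfp521, a regulator of progenitor cells, by -1.80 (adjusted p = 9.18e-06, limma for all 3). Zfp592, Zfp687 and Zfp532, which work in 1 complex with Zmynd8, differed by -1.03, -0.91 and -1.50, all 3 past the threshold, although other genes' exons cover 28.7% of the exon bases of Zfp532.

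Other members of that list did not pass. Zfp143, which marks promoter ends of chromatin loops, had a log2 difference of 0.25 (limma, adjusted p = 0.442). For Zfp281, another GC-box factor, it was -0.12 (adjusted p = 0.674). The NET family co-repressors Zfp503 and Zfp703, which lack an array of C2H2 fingers, had 0.66 (adjusted p = 0.0981) and 0.05 (adjusted p = 0.843). Zfp503 passed without EV input 1 (1.0, adjusted p = 0.0176) and had 0.31 without EV input 2. Zfp410, an activator of the Chd4 gene, had -0.28 (adjusted p = 0.332).

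KRAB-type members had few reads, with a median input of 6.91 normalised reads, against 23.4 over all genes. Of the 75 members with the KRAB-like pattern 18 were lower (24.0%, against 25.4% of all genes) and 1 (Zfp1) was higher (1.33%, against 25.6%), with a median of -0.59. Of the 114 without it 56 were lower (49.1%) and 5 higher, with a median of -0.68. The log2 difference was below 0 in 62 of the 75, in 91 of the 114 and in 4521 of all 9307 genes. The call of Zfp1 (0.87, limma, adjusted p = 0.0332) held in only 2 of the 8 fits without 1 library, those without EV input 1 and OE input 2, and ranged from 0.67 to 1.07. Among 5 KRAB proteins with well described targets 3 were listed. Zfp809, which silences retroviral elements, differed by -1.0 (adjusted p = 0.00824), and Zfp568, which represses a placental Igf2 transcript, by -0.99 (adjusted p = 0.0274, limma for both). The call of Zfp568 was lost without EV input 1, either OE input library, EV RPF 1 or OE RPF 1 (-0.72 to -0.99). DESeq2 called none of Zfp1, Zfp326, Zfp568, Zfp809 and Zfp830. Zfp57, which keeps methylation at imprinted genes, had -0.37 (adjusted p = 0.396).

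The lowest RPF against input among members with a mean input of at least 10 was that of Zfp956, at -3.01 (SE 0.33, limma, adjusted p = 1.25e-08). It had RPF values of 1.65 and 0.898 in OE and 3.30 and 3.01 in EV libraries, from 1 to 5 reads. Its input values were 22.5 and 26.6 in OE and 15.4 and 33.1 in EV libraries. The RPF libraries were all far under the input libraries, and 91.3% of its 28-base subsequences were unique to it. Zfp142, the member with most fingers, followed after Zfp36 at -2.36 (SE 0.20), with RPF of 14.3 and 13.5 in OE and 8.57 and 9.79 in EV libraries against input of 67.4 and 55.9 in OE and 73.2 and 53.5 in EV libraries. Zfp654 (-2.23), Zfp652 (-2.15), a partner of ETO-family co-repressors, and Zfp523 (-2.12), a relative of Zfp143, came next, all past the threshold. At the upper end Zfp275 (0.40), Zfp266 (0.36) and Zfp282 (0.36) stood after Zfp622, Zfp207 and Zfp326 and did not pass (adjusted p 0.0667, 0.104 and 0.293). Zfp266 passed without EV input 2 (0.49) and without EV RPF 2 (0.53).

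RPF against input was lower at the median in members with 5 or more fingers than in those with fewer, with no steady fall beyond. The 28 members with 1 to 4 fingers had a median log2 difference of -0.17, with 8 lower (28.6%) and 5 higher (17.9%), against 25.4% and 25.6% of all genes. With 5 to 9 fingers the median of 58 members was -0.67 (28 lower, 1 higher), with 10 to 14 it was -0.66 (60 members, 20 lower), with 15 or more -0.75 (37 members, 16 lower), and without any -0.24 (6 members, 2 lower). The share lower was 48.3% with 5 to 9 fingers, 33.3% with 10 to 14 and 43.2% with 15 or more. No member with 10 or more fingers was called higher. Over the 189 members Spearman's rho between number of fingers and log2 difference was -0.24, a correlation across genes of the same 8 libraries and not across replicates. For transcript length rho was -0.22 over the members and -0.37 over all genes.

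**Figure D3:**
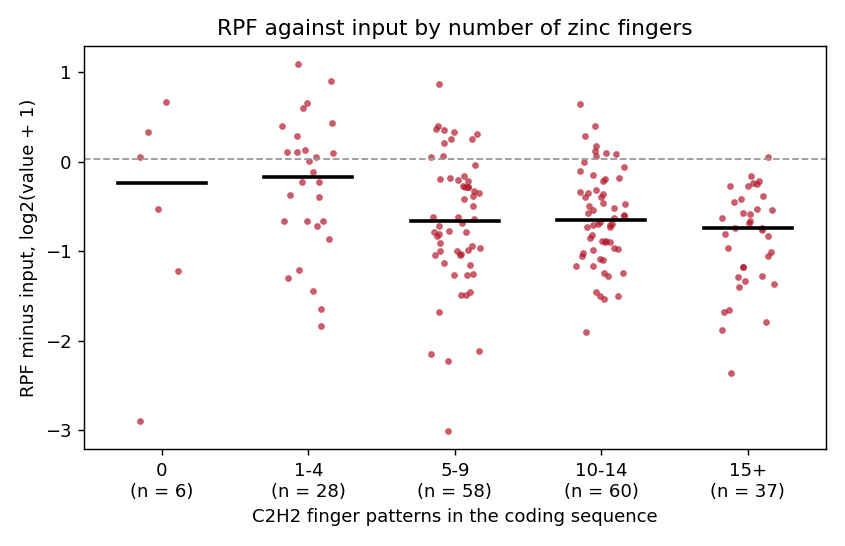
Log2 difference between RPF and input (vertical) of each Zfp-named gene by the number of C2H2 finger patterns in its coding sequence. Black bars are medians, and the dashed line is the median of all listed genes. The medians were -0.17 at 1 to 4 fingers, -0.67 at 5 to 9, -0.66 at 10 to 14 and -0.75 at 15 or more.

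Genes of other zinc finger names were set beside them. Over all genes 25.4% were lower and 25.6% higher, and several of the counts that follow lie near these shares. Of 31 listed Zbtb genes, which pair fingers with a BTB domain, 12 were lower and none was higher in RPF than input. Of 12 Zscan and Zkscan genes 2 were lower and 1 higher, of 10 Klf genes 2 were lower and 2 higher, and of 14 Zc3h genes, which carry CCCH fingers, 6 were lower and 1 higher. Of 16 Zdhhc genes, also named for a zinc finger, 8 were lower and none was higher. Their median log2 difference was -0.97, against -0.63 for Zfp-named genes. The share lower was 39.2% for Zfp-named, 38.7% for Zbtb and 50% for Zdhhc genes. The co-repressor partners of KRAB proteins were split, with 8 lower and 9 higher of 26 (30.8% and 34.6%). Trim28 itself was higher in RPF (log2 difference 0.43, limma, adjusted p = 5.62e-05).

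Between OE and EV cells no Zfp-named mRNA passed the threshold in input (limma, 0 of 189, where 1.01% of all genes were called higher and 0.494% lower, 1.5% in all). The other tools called none either, edgeR at 0.612% and DESeq2 at 0.226% of all genes. DESeq2 gave no adjusted p in input for most named members, Zfp873, Zfp655 and Zfp335 among them, and so could not call those. At an unadjusted p under 0.05 limma had 4 members, where the share of all genes was 13.4%. The limma calls over all genes differed with read level. At a mean value of 50 or more, where 7 members lie, 2.76% of all genes were called higher and 1.30% lower. Between 5 and 10, where 59 members lie, the shares were 0.141% and 0.282%. The part of read level in the 0 of 189 was not tested. Both OE libraries lay above both EV libraries in 19 members and below in 34, against 21.2% and 19.4% of all genes. The median log2 change was -0.08 for Zfp-named genes and -0.00 for all genes.

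Zfp873 had the smallest p in input. Its values were 1.61 and 3.99 in OE and 10.3 and 11.5 in EV input libraries, that is 1, 3, 8 and 9 reads. Both OE libraries were below both EV libraries, with a log2 change of -1.72 (SE 0.54, limma, adjusted p = 0.111). The ratio of pooled reads was 0.268, with an exact 95% interval from 0.0656 to 0.821 that covers counting error only. Its RPF did not follow, with 3.29 and 3.59 in OE and 1.98 and 6.02 in EV libraries, which overlap.

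Zfp655, with more reads, had the next smallest p. It had input values of 40.1 and 46.6 in OE and 30.8 and 21.7 in EV libraries, with no overlap (log2 change 0.72, SE 0.28, limma, adjusted p = 0.231). Its RPF values of 28 and 23.3 in OE and 19.1 and 16.6 in EV libraries did not overlap either (0.50, adjusted p = 0.578). Zfp335, part of a histone methyltransferase complex, had input values of 25.7 and 26.6 in OE and 48.8 and 43.3 in EV libraries. Both OE libraries were lower (-0.79, SE 0.35, adjusted p = 0.322), while its RPF of 12.1 and 18.9 in OE and 7.91 and 21.1 in EV libraries overlapped. Other genes' exons cover 28.3% of its exon bases.

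The other members named by size of input change had adjusted p from 0.375 to 0.716 with limma. Above 0 were Zfp398 (0.95), Zfp553 (0.77), Zfp330 (0.67, with only 68.6% unique sequence), Zfp800 (0.60) and Zfp382 (0.55). Below 0 were Zfp933 (-1.10), Zfp869 (-0.84), Zfp521 (-0.82) and Zfp637 (-0.78). All rest on 2 to 25 reads per input library. Zfp800 had 0.096 without EV input 1 and 1.10 without EV input 2, and Zfp382 had 0.25 and 0.85 without these libraries. Zfp869 had -1.38 without OE input 1 and -0.29 without OE input 2, and Zfp933 had -1.61 and -0.59.

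RPF did not separate the genotypes for any member at the threshold (limma, 0 of 189, where 0.72% of all genes were called higher and 0.236% lower, 0.956% in all), and 8 members had an unadjusted p under 0.05 (10.2% of all genes). DESeq2 called none (0.408% of all genes), but it gave no adjusted p in RPF for most named members, Zfp53 among them, and could not call those. edgeR called 2, at 3.23% of all genes: Zfp53, higher in OE (log2 change 1.67, edgeR adjusted p = 0.0431), and Zfp839, lower (-2.34, edgeR adjusted p = 0.0456). Zfp839 lies outside the rule for named genes and is included because of this call. With limma 2.22% of all genes were called higher and 0.712% lower at a mean value of 50 or more. Between 5 and 10 the shares were 0.0% and 0.0705%. Both OE libraries lay above both EV libraries in 38 members and below in 36, against 21.9% and 22.2% of all genes, and the median log2 change was 0.01.

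Zfp53, whose finger is shown above, had RPF values of 13.7 and 8.08 in OE and 3.30 and 3.76 in EV libraries, on 25, 9, 5 and 5 reads. Both OE libraries were higher (log2 change 1.35, SE 0.48, limma, adjusted p = 0.227). The pooled ratio was 3.29, with an exact 95% interval from 1.59 to 7.48 that covers counting error only. Its input overlapped, at 17.7 and 7.99 in OE and 10.3 and 6.37 in EV libraries. Zfp839 had RPF values of 1.10 and 0.898 in OE and 5.27 and 6.02 in EV libraries, 2, 1, 8 and 8 reads (-1.73, SE 0.54, limma, adjusted p = 0.158).

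Zfp933 was low in OE in both kinds of library. Its RPF values were 1.65 and 0.898 in OE and 7.25 and 3.76 in EV libraries, and its input values 6.42 and 2.66 in OE and 11.6 and 8.92 in EV libraries. Neither pair overlapped, with log2 changes of -1.48 in RPF (SE 0.54, limma, adjusted p = 0.248) and -1.10 in input (adjusted p = 0.375). It rests on 1 to 11 reads per library, and 87.4% of its sequence is unique. Zfp521 had RPF values of 4.39 and 2.69 in OE and 9.89 and 6.02 in EV libraries and input values of 16.1 and 14.6 in OE and 24.4 and 31.8 in EV libraries. OE was lower in both without overlap, with log2 changes of -0.97 in RPF (adjusted p = 0.382) and -0.82 in input (adjusted p = 0.402, limma for both). Zfp398 was the reverse case, with RPF of 9.88 and 8.08 in OE and 4.62 and 2.26 in EV libraries and input of 6.42 and 5.33 in OE and 2.57 and 2.55 in EV libraries (1.22 and 0.95, limma, adjusted p = 0.359 and 0.430).

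The other members named for RPF had adjusted p from 0.357 to 0.621 with limma. Zfp850 (1.10), Zfp57 (0.92), Zfp426 (0.83) and Zfp160 (0.81) were above 0, and Zfp101 (-1.17), Zfp212 (-1.11), Zfp748 (-0.98) and Zfp956 (-0.89) below. Zfp101 had -2.05 without EV RPF 1 and -0.30 without EV RPF 2, where its EV values were 1.98 and 9.03. Zfp160 had 1.28 and 0.33 without these 2 libraries. Over the 189 members Spearman's rho between the mRNA and the RPF change was 0.15, and over all genes 0.28, as a description across genes of the same libraries.

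**Figure D4:**
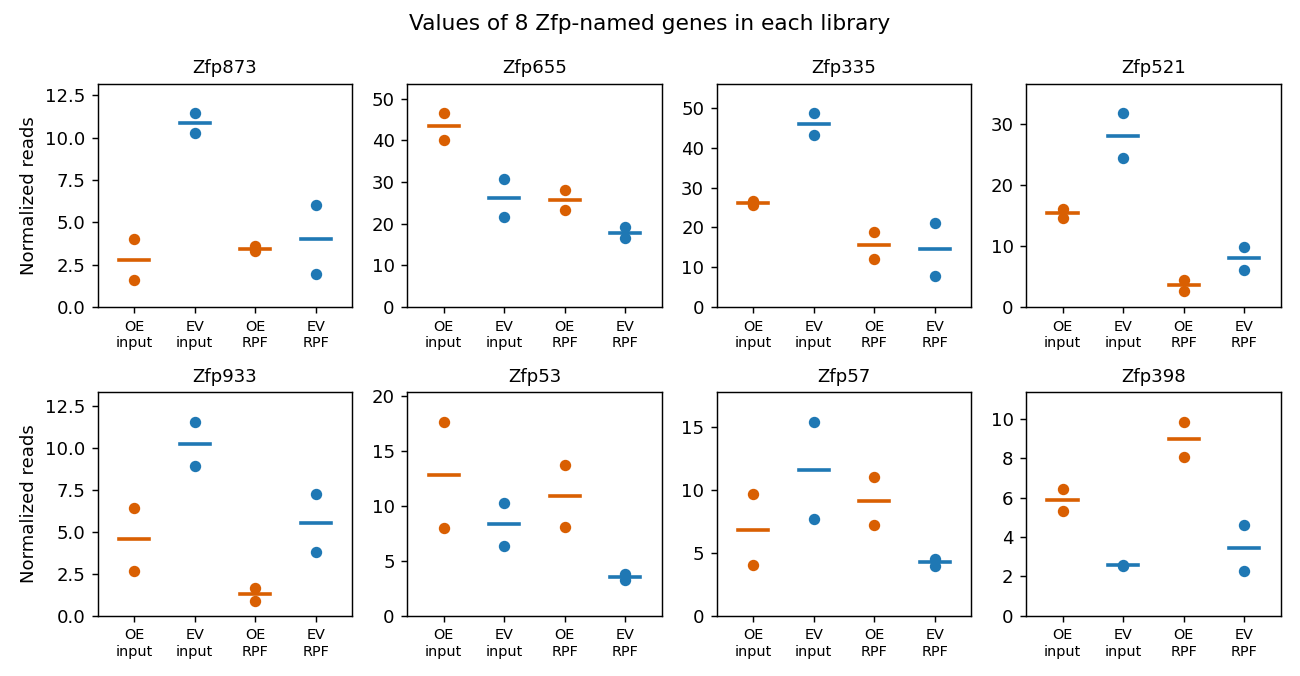
Normalised reads of 8 Zfp-named genes in OE (orange) and EV (blue) input and RPF libraries. Points are the 2 libraries of each group and bars their mean. Zfp873, Zfp335, Zfp521 and Zfp933 lie lower in OE input, Zfp655 and Zfp398 higher, and none of the 8 passed the limma threshold.

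Translational efficiency (TE), the RPF change minus the mRNA change in 1 model, gave no call among the members or over all genes (limma, 0.0%). At an unadjusted p under 0.05 there were 6 members, where the share of all genes was 5.46%, and edgeR and DESeq2 called no member (0.0107% and 0.0% of all genes). The median log2 TE change was 0.05 for Zfp-named genes and -0.01 for all genes. The ratio of RPF to input was above 1 in OE but not EV cells for 20 of 189 members and 895 of 9307 genes, and in EV but not OE cells for 17 members and 863 genes, much the same shares.

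Zfp850, Zfp873 and Zfp57 had the 3 highest TE changes. Zfp57 had RPF values of 11 and 7.18 in OE and 3.96 and 4.52 in EV libraries, both OE libraries being higher, and input values of 9.63 and 3.99 in OE and 15.4 and 7.64 in EV libraries, which overlap. The log2 TE change was 1.63 (SE 0.70, limma, adjusted p = 0.899), on 3 to 20 reads per library. For Zfp850 it was 1.75 (SE 0.76, adjusted p = 0.899), with RPF values that rest on 10, 3, 3 and 1 reads in OE 1, OE 2, EV 1 and EV 2.

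The remaining members named for TE had adjusted p of 0.899 to 0.934 with limma. Zfp873 (1.67), Zfp771 (1.32), Zfp426 (1.28) and Zfp180 (1.10) were above 0. Zfp553 (-1.39), Zfp382 (-1.15), Zfp956 (-1.0), Zfp668 (-0.96), Zfp513 (-0.90) and Zfp1 (-0.83) were below 0. Zfp382 had -0.29 without OE RPF 2 and -2.01 without OE RPF 1, and Zfp513 had -0.13 without OE input 1 and -1.67 without OE input 2.

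**Figure D5:**
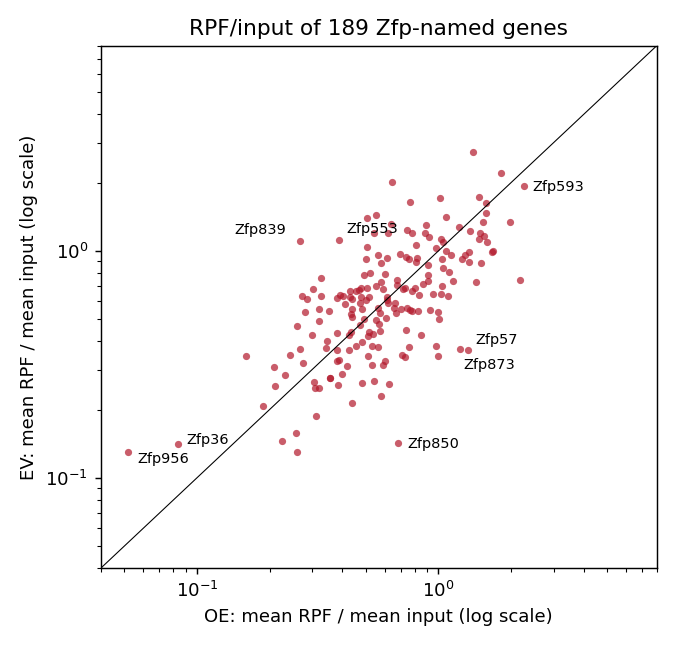
Mean RPF over mean input of the 189 Zfp-named genes in OE cells (horizontal, log scale) and EV cells (vertical, log scale), with the line of equal ratios. Zfp36 and Zfp956 are low in both genotypes and Zfp593 is high in both, while Zfp57, Zfp873 and Zfp850 lie towards OE and Zfp553 and Zfp839 towards EV, none past the threshold for TE.

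AGA codons were also counted, since an AGA-reading tRNA is a METTL1 substrate. They made up a median of 1.65% of the codons of Zfp-named genes and 1.06% over all genes. The fingers shown above hold 2 AGA codons in Zfp873 and in Zfp933, 1 in Zfp652, Zfp180 and Zfp53, and 0 in Zfp956. Across the 189 members rho between the AGA share and the log2 TE change was 0.11, and 0.04 over all genes. Cysteine and histidine made up medians of 4.92% and 5.75% of the residues of Zfp-named proteins, against 1.82% and 2.46% over all genes.

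Of the KRAB co-repressor partners 26 of 27 were listed. Hdac2, a histone deacetylase, was lower in OE input, at 83.5 and 94.5 in OE and 139 and 147 in EV libraries (log2 change -0.68, SE 0.16, limma, adjusted p = 0.0311). It did not pass with edgeR (adjusted p = 0.0629) or DESeq2 (0.346), nor without EV input 1 (-0.71), EV input 2 (-0.64), OE input 1 (-0.59) or either EV RPF library (-0.68). Trim28 had input values of 220 and 214 in OE and 205 and 205 in EV libraries (0.08, adjusted p = 0.808) and RPF values of 264 and 275 in OE and 284 and 319 in EV libraries (-0.16, adjusted p = 0.700). No partner passed in RPF or TE.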

How the data were processed

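Per the submitters' processing notes, Bowtie and mouse build mm10 were used. Not given in the sources used here are the version of Bowtie, how reads were counted, on which strand, and with which annotation. Values in the deposited table are signal, that is reads per gene divided by a size factor of the library. Whole reads were recovered for 100% of values within a tolerance of 1e-06, and the authors' factors equalled median-of-ratios factors. The deposited log2 fold changes and p-values of TE were not used. Of 9309 lines 2 were blank. Of 9307 genes 9306 matched GENCODE M21 without the version suffix.

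The values were fitted with limma 3.58.1 (R 4.3.3, mean-variance trend, 8 libraries in 4 groups, no covariate) on log2(value + 1) with a minimum mean of 1, two-sided, with Benjamini-Hochberg adjustment over all genes at 0.05. That scale understates changes of low genes. edgeR 4.0.16 (quasi-likelihood) and DESeq2 1.42.0 (Wald) on recovered reads, pseudocounts of 0.5 and 5, other filters, scalings and sample sets, a replicate block and leaving out each library were tried. The fit was tested on simulated data with changes put only into genes of higher mean value than most members have. That test thus does not cover changes in low genes.

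Features came from the complete coding transcript with the longest coding sequence. Fingers and the KRAB-like pattern were sequence patterns in its translation, and the KRAB-like one was chosen after sequences were seen. Exon overlap was taken on either strand. The members and lists were chosen with earlier results of these data known. Named were, per OE/EV comparison, members past the threshold and the 6 largest changes in each direction with a mean of at least 5 and no overlap (for TE, in either library type), the 8 most abundant per length, the 6 highest and 6 lowest RPF/input with a mean input of at least 10, the role lists, Trim28 and its partners past the threshold. Zfp839 was named for its edgeR call.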

Additional observations from a re-analysis of the deposited data

How the results depend on the processing

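No called result changed direction under any alternative. The count of members called between RPF and input (80) was 52 with DESeq2, all 52 among the 80, and 69 to 80 when 1 library was left out, of which 67 to 72 were among the 80. The median log2 difference of the members (-0.63) was -0.74 with edgeR, -0.73 with DESeq2, -0.38 with a pseudocount of 5 and -0.81 with a minimum mean of 10. Relative to all genes (-0.66) it was -0.76, -0.75, -0.40 and -0.89. Of 46 named members called, 32 were called in every fit without 1 library. For RPF between OE and EV, edgeR called 2 members in place of 0. The median RPF change (0.01) was 0.054 with a minimum mean of 10 and ranged from -0.0597 to 0.0246 without 1 library. The median mRNA change (-0.08) was 0.022 without OE input 2 and ranged down to -0.123 without OE input 1, and the median TE change (0.05) ranged from -0.00979 to 0.114 without 1 library. Causes were not tested. Over all genes the mRNA calls (140) were 57 with edgeR, 21 with DESeq2 and 47 with only the input libraries. The RPF calls (89) were 301 with edgeR, 38 with DESeq2 and 174 with only the RPF libraries. Without 1 library the mRNA calls ranged from 50 (without EV input 2) to 156 and the RPF calls from 16 (without EV RPF 2) to 100.

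Libraries with the same replicate number showed no common deviation from their group means (correlations of deviations -0.01 to 0.03). With so few reads per gene this cannot show whether they were made in pairs. With a replicate block 0 members were called in mRNA, RPF and TE and 82 between RPF and input, and with a block within genotype 0 in TE and 83 between RPF and input. At 7 to 12 reads for the median member in a library, changes between OE and EV in single members are poorly resolved.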
